A study of Homo sapiens with 18 samples.

Results

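Transcripts of 52 genes of mitosis and the spindle were followed in the human osteosarcoma line U2OS, in derivatives that carried a doxycycline-inducible vector for estrogen receptor beta (ERβ) or alpha (ERα). The genes were taken from a written list of mitotic genes and matched by the gene symbol of the array's probe annotation. The list was drawn up with earlier results of these data known. All 52 had a probe detected on at least 3 of 18 arrays, out of 13505 genes with such a probe. The array groups were ERβ cells with doxycycline plus E2 (the estrogen estradiol), with doxycycline, and without doxycycline, and ERα cells in the same 3 states, with 3 arrays in each. All cells of a line carried its stably transfected vector, also those without doxycycline. The sources used here give no dose or time, and do not say whether a line is 1 clone. Nor do they say if the arrays in each group are independent cultures, so the p-values rest on a spread that may be purely technical.

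Mitosis is run by cyclin-dependent kinase 1 with its A and B cyclins, by the Polo and Aurora kinases, and by the spindle checkpoint, which holds back the anaphase-promoting complex until every kinetochore is attached. Kinesin motors and their partners build the spindle, and the midzone and cytokinesis proteins then divide the cell. Most of these genes are transcribed in G2 and M phase. Their promoters are regulated by the DREAM and MYB-MuvB complexes and FOXM1. The elements involved are the CHR, a motif close to the start site, and CCAAT boxes, which bind NF-Y. A mitotic transcript level in a culture therefore reflects how many cells are in G2 and M phase as well as the amount per cell. In RNA from a whole culture these cannot be told apart.

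Promoter sequences are shown because these elements are known from promoters of mitotic genes, though not every member holds them. The levels below rest on other data. Promoters of 44 of the 52 members were found in the RefSeq table (build GRCh38.p14), and AURKA, BUB3, TTK, UBE2C, BIRC5, TPX2, RACGAP1 and FOXM1 were not matched. In the 250 bases before the start, TTTGAA (the core of the CHR element) was present on either strand in 26 of 44 members, or 59.1%, against 16.1% of all 27305 genes in the table. CCAAT was present on either strand in 36 members, or 81.8%, against 37% of all genes. Both were present in 23 members, against 6.86% of all genes, and 5 members had neither. Within the last 50 bases before the start, TTTGAA was present in 18 members, against 2.88% of all genes. A gene with several starts was counted where any of them held the motif, and a match is a description of letters, not a site of binding. The 6 sequences below give the 100 bases before the start, 5′ to 3′ on the gene's strand, with both motifs in capitals, and a motif on the other strand appears as its reverse complement.
MKI67: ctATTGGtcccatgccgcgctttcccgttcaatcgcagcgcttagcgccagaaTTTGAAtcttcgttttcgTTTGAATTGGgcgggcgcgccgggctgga
CCNB2: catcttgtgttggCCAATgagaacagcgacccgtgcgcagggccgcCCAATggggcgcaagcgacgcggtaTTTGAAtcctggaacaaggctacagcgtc
PLK1: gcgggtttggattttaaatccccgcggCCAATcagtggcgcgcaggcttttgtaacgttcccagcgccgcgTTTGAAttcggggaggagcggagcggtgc
KIF15: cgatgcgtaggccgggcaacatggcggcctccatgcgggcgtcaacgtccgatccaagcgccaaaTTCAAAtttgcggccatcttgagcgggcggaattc
CENPA: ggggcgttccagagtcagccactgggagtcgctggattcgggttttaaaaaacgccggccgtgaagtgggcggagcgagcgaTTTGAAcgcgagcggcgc
KIF2C: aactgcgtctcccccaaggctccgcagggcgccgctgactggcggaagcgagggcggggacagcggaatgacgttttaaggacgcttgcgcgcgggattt
The MKI67 stretch lies at chr10:128126424-128126523 on the minus strand, and that of CCNB2 (cyclin B2) at chr15:59105046-59105145, PLK1 (Polo-like kinase 1) at chr16:23678789-23678888, KIF15 at chr3:44761694-44761793, CENPA (the centromeric histone) at chr2:26785956-26786055 and KIF2C at chr1:44739737-44739836, all on the plus strand. CCNB2 and PLK1 both have TTTGAA at position -29, counted back from the start, with CCAAT boxes farther away. In MKI67 a TTTGAA at the same position overlaps a reversed CCAAT box by its last base, and another TTTGAA stands at position -47. KIF15 and CENPA have TTTGAA at positions -35 and -18 without a CCAAT box in this stretch, and KIF2C holds neither motif.

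Between 19834 and 22485 probes were detected per array, and precision is set by having 3 arrays per group: a member's log2 change had a standard error (SE) of 0.112 in the median, against 0.139 over all genes. Of the members, 51 were detected on all 18 arrays and MYBL2, a transcription factor of the mitotic programme, on 14, with levels of 5.62 to 7.61 around the lower end of the detected range (6.08 to 6.52, depending on the array). Levels are normalized log2 signals of 1 probe per gene and are compared between arrays, not between genes. ESR2, which encodes ERβ, stood at 16.04 ± 0.01 with doxycycline plus E2, 15.94 ± 0.14 with doxycycline and 11.26 ± 0.14 without doxycycline in ERβ cells (SD, n = 3 each). In ERα cells its probe was detected on 2 of 3 arrays with doxycycline plus E2 and on 0 arrays in the other states. The ESR1 probe was detected on 3 arrays in all and does not check the induction of ERα. Of the mesenchymal markers fixed for this line, 6 of 7 were detected on all 18 arrays, and of the blood markers 0 of 6 were. The mean level of the mesenchymal list was 10.92 to 11.3 on ERβ arrays and 11.57 to 12.19 on ERα arrays. That of the epithelial list, with 3 of 6 markers detected on all arrays and 1 on none, was 8.16 to 8.67 and 8.73 to 9.27. That of the blood list, with 3 of 6 detected on no array, was 5.7 to 6.05 on ERβ arrays and 5.49 to 6.08 on ERα arrays. The part of these lists in the results was not tested.

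The mitotic genes were higher in the ERβ line than in the ERα line in each of the 3 states. A gene is called where its adjusted p in limma, over all genes, is below 0.05. With doxycycline plus E2, 50 of 52 members were called higher and 0 lower, where 22.6% of all genes were called higher and 24.3% lower. With doxycycline 49 members were called higher and 0 lower (background 25.1% and 24.1%), and without doxycycline 48 higher and 0 lower (background 26.4% and 24.1%). The median difference, ERβ minus ERα, was 1.04 on the log2 scale with doxycycline plus E2 (2.05-fold), 0.94 with doxycycline (1.92-fold) and 0.81 without (1.76-fold), against 0, 0.02 and 0.04 over all genes. The groups of arrays did not overlap, with ERβ above, for 50, 49 and 47 members, against 27.4%, 28.2% and 29.1% of all genes. At least 2-fold higher, and called, were 27, 23 and 13 members, against 5.92%, 6.93% and 6.03% of genes. The comparisons in the doxycycline states were added after the data had been seen, and the 3 comparisons have no array in common. The 2 lines differ in their vector and in whatever else separates them, and these cannot be told apart.

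**Figure D1:**
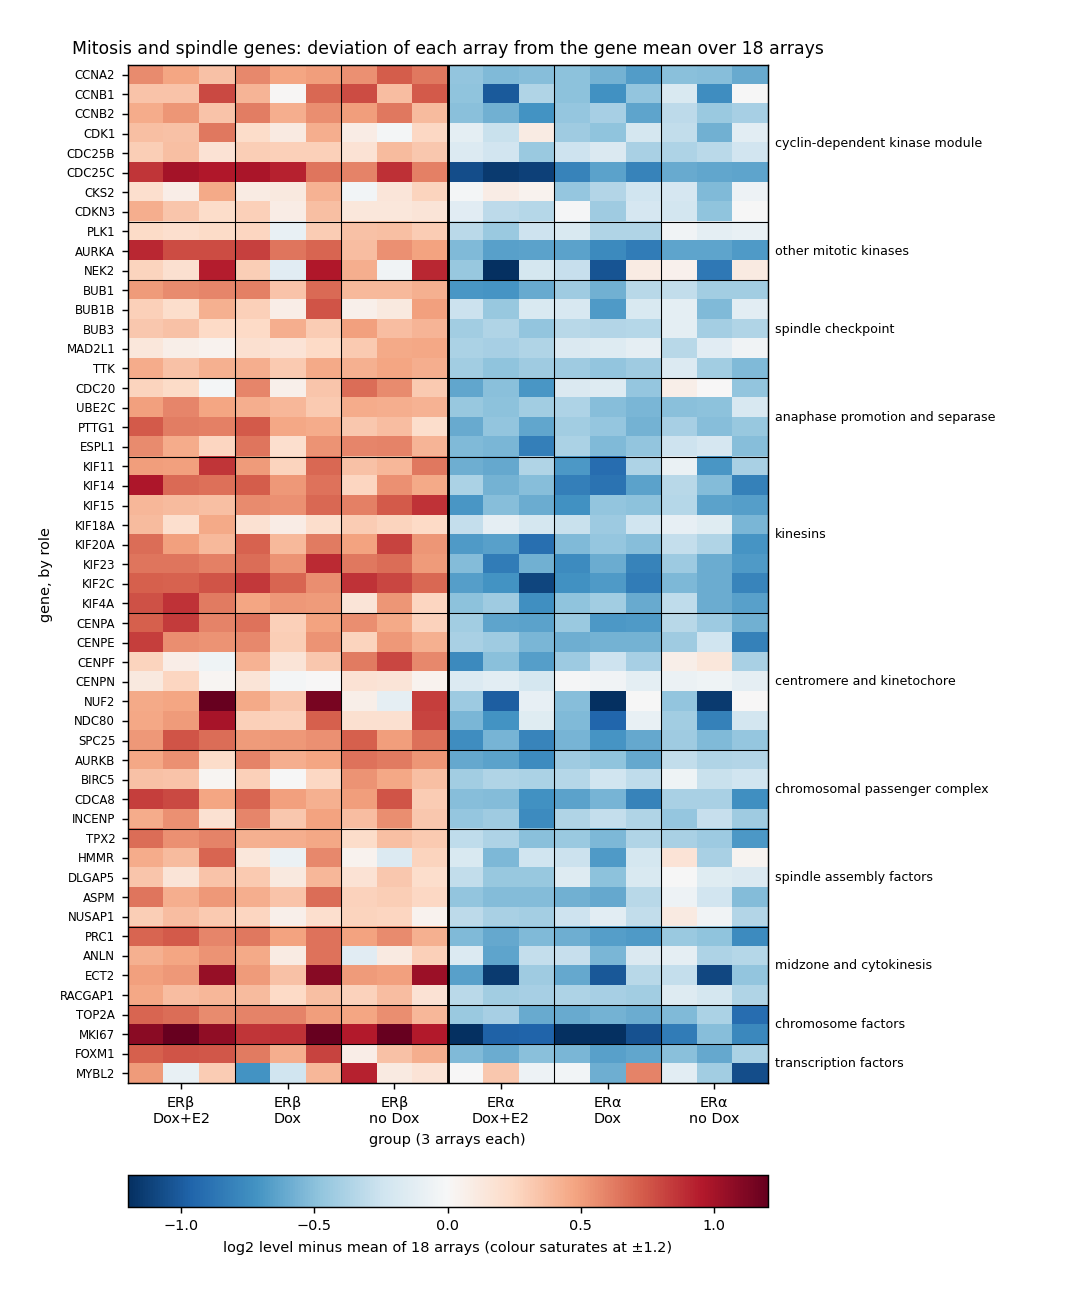
Log2 level of each of the 52 genes (rows, by role) on each of the 18 arrays (columns, in 6 groups), as the deviation from the gene's mean over all arrays, with red above and blue below it. For 40 genes all 9 ERβ arrays lie above all 9 ERα arrays, and NEK2, NUF2, NDC80 and ECT2 also differ between arrays of a group.

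Of the members, 45 were called higher in all 3 states, where 13.4% of all genes were. The groups of arrays did not overlap in any state for 44 members (14.8% of genes), and for 40 members every ERβ array lay above every ERα array whatever the state (10.2% of genes). NUF2, ANLN, HMMR, CKS2 and CENPN were called in 2 states, and NEK2 and MYBL2 in 1. The mean level of the 52 genes per array was 12.62 to 12.66 in ERβ cells with doxycycline plus E2, 12.45 to 12.69 with doxycycline and 12.54 to 12.59 without, and in ERα cells 11.61 to 11.69, 11.59 to 11.73 and 11.71 to 11.87.

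Among the genes of the cyclin-dependent kinase module, the difference ran from 0.21 to 2.05 in the state with doxycycline plus E2, where 7 of 8 were called higher, and all 8 were called in the other states. CDC25C, the phosphatase that activates cyclin B-CDK1, had levels of 11.38, 11.53 and 11.48 in ERβ cells with doxycycline plus E2, against 9.46, 9.37 and 9.41 in ERα cells. With doxycycline it stood at 11.50, 11.44 and 11.17 in ERβ cells and 9.73, 9.88 and 9.72 in ERα cells, and without doxycycline at 11.12, 11.40 and 11.13 and at 9.92, 9.90 and 9.89. These gaps came to 2.05 ± 0.10, 1.59 ± 0.10 and 1.31 ± 0.10 (SE; adjusted p = 3.39e-10, 2.96e-09 and 3.48e-08 in limma), wider than any spread within a group. CCNA2 (cyclin A2) was at 13.38, 13.55 and 13.47 in ERβ cells without doxycycline, against 12.33, 12.32 and 12.22 in ERα cells, a difference of 1.18 ± 0.08 (adjusted p = 1.13e-08 in limma). It was 1.09 ± 0.08 with doxycycline and 0.97 ± 0.08 with doxycycline plus E2. CCNB1 (cyclin B1) was at 11.65, 11.65 and 12.10 in ERβ cells with doxycycline plus E2, against 10.83, 10.31 and 10.95 in ERα cells, and its differences were 1.11, 0.93 and 0.94 ± 0.22 from that state to the one without doxycycline. CDK1 itself differed less, by 0.54, 0.63 and 0.44 ± 0.14, with 13.72, 13.71 and 13.99 in ERβ cells and 13.25, 13.10 and 13.46 in ERα cells under doxycycline plus E2. CDK1's difference was not called in any state when the probes of a gene were averaged, and without doxycycline it also missed the threshold when array 2 of the ERα group or array 3 of the ERβ group was left out (settings over all alternatives 0.31 to 0.55). CKS2, a small CDK-binding protein, was not called with doxycycline plus E2 (0.21 ± 0.13, adjusted p = 0.225 in limma), where its probe ILMN_1756326 was (0.21 ± 0.08, adjusted p = 0.0477).

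Of the other mitotic kinases, AURKA, the Aurora kinase of the spindle poles, showed the widest gap in each state. Its levels were 14.10, 13.97 and 13.98 in ERβ cells with doxycycline plus E2 and 12.67, 12.54 and 12.55 in ERα cells, 14.01, 13.83 and 13.89 against 12.56, 12.43 and 12.35 with doxycycline, and 13.56, 13.74 and 13.67 against 12.56, 12.56 and 12.51 without. The differences were 1.43, 1.46 and 1.11 ± 0.08 (adjusted p = 1.84e-09, 8.56e-10 and 2.44e-08 in limma). PLK1, which drives entry into mitosis and centrosome maturation, differed by 0.56, 0.46 and 0.43 ± 0.10, with 10.14, 10.11 and 10.14 in ERβ cells and 9.59, 9.46 and 9.66 in ERα cells under doxycycline plus E2. NEK2, a centrosome kinase, was called with doxycycline plus E2 (1.10 ± 0.39, adjusted p = 0.0289 in limma) and not in the other states, where its differences were 0.78 and 0.66 ± 0.39. Its arrays spread widely within groups, for example 11.17, 10.42 and 11.55 in ERα cells with doxycycline. A second NEK2 probe, ILMN_1653822, was called higher in ERβ cells in all 3 states, at 1.15, 0.88 and 0.93 ± 0.14.

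All 5 spindle checkpoint genes were called higher in ERβ cells in every state, by a median of 0.72 with doxycycline plus E2, 0.73 with doxycycline and 0.72 without. BUB1, a checkpoint kinase at kinetochores, had 12.94, 12.99 and 13.02 in ERβ cells with doxycycline plus E2 against 11.73, 11.73 and 11.83 in ERα cells, a difference of 1.22 ± 0.09 (adjusted p = 3.3e-08 in limma). TTK (MPS1), which starts checkpoint signalling, differed by 0.85, 0.84 and 0.82, and BUB3 by 0.72, 0.67 and 0.72, values that lay within their SE of 0.08 of each other. The 4 genes of anaphase promotion and separase were likewise called in every state. CDC20, the activator of the anaphase-promoting complex, had 14.34, 14.30 and 14.04 in ERβ cells with doxycycline plus E2 against 13.44, 13.56 and 13.37 in ERα cells, and its differences were 0.77, 0.59 and 0.65 ± 0.16. PTTG1 (securin) had 15.46, 15.33 and 15.32 in ERβ cells with doxycycline plus E2 against 14.11, 14.25 and 14.10 in ERα cells, and differed by 1.22, 1.03 and 0.75 ± 0.09.

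**Figure D2:**
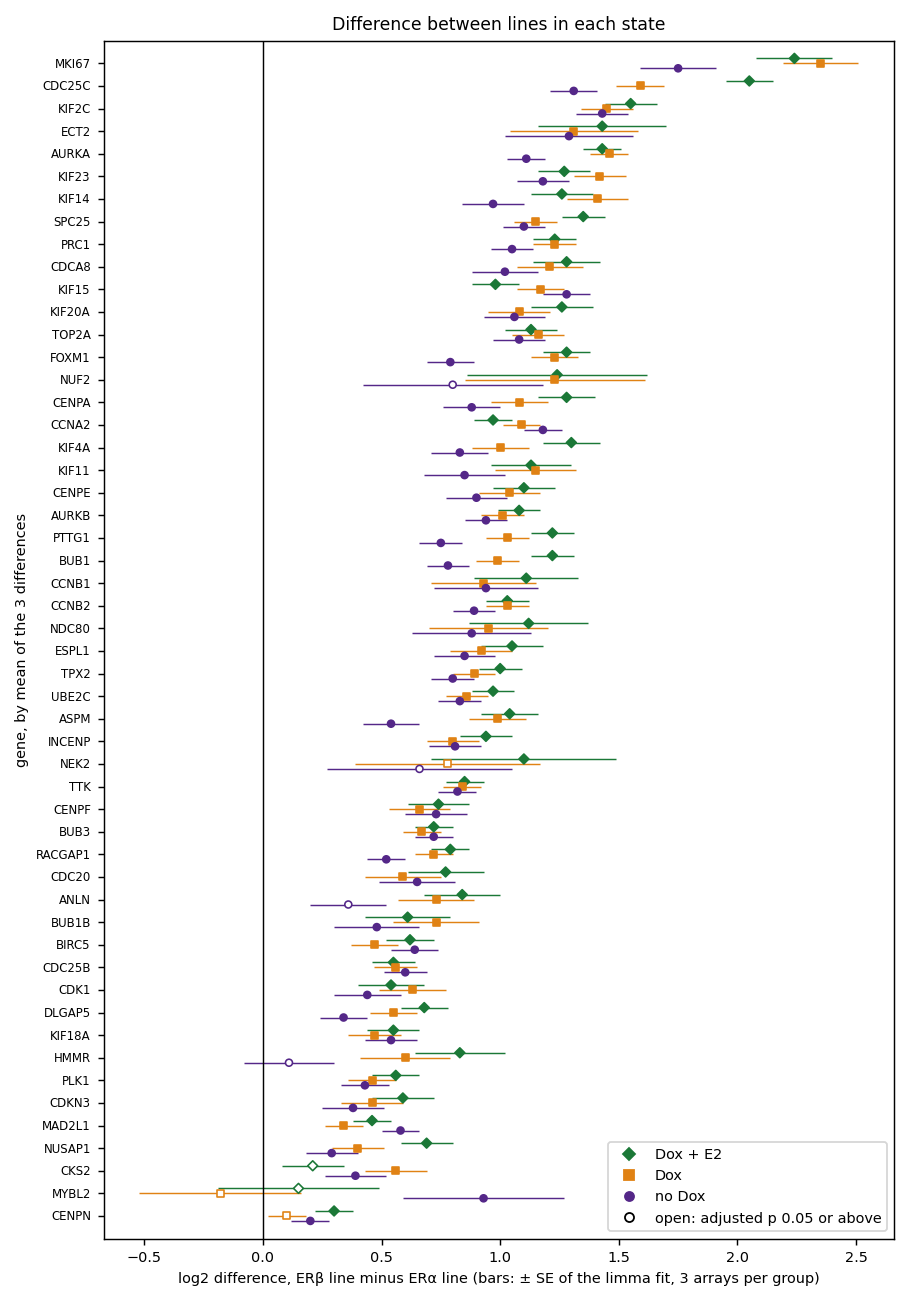
Difference in log2 level between the lines, ERβ minus ERα, for each gene (rows, by mean difference), with doxycycline plus E2, with doxycycline and without doxycycline (bars, ± SE of the fit with 3 arrays per group). Points lie right of 0 for every gene and state except MYBL2 with doxycycline (-0.18), and 9 of the 156 points are open, which marks an adjusted p of 0.05 or above.

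The 8 kinesins were called higher in every state, by a median of 1.26 with doxycycline plus E2, 1.16 with doxycycline and 1.01 without. KIF2C, a microtubule depolymerase that corrects attachments, had 12.61, 12.60 and 12.65 in ERβ cells with doxycycline plus E2 against 11.23, 11.18 and 10.79 in ERα cells. It had 12.74, 12.59 and 12.45 against 11.17, 11.22 and 11.05 with doxycycline, and 12.76, 12.70 and 12.58 against 11.35, 11.29 and 11.10 without. Its differences of 1.55, 1.45 and 1.43 ± 0.11 were among the most even of the set. KIF15, a plus-end motor that helps to keep the spindle bipolar, had its own widest gap without doxycycline (1.28 ± 0.10, 11.12, 11.25 and 11.39 in ERβ cells against 10.18, 9.88 and 9.86 in ERα cells) and its own narrowest with doxycycline plus E2 (0.98 ± 0.10). KIF23, of the central spindle, differed by 1.27, 1.42 and 1.18, and KIF18A, a regulator of chromosome alignment, by 0.55, 0.47 and 0.54.

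Of the 7 centromere and kinetochore genes, all were called with doxycycline plus E2 and 6 in each of the other states. SPC25, of the NDC80 complex that grips microtubules, had 12.27, 12.51 and 12.42 in ERβ cells with doxycycline plus E2 against 11, 11.19 and 10.96 in ERα cells (1.35 ± 0.09, adjusted p = 7.88e-09 in limma). Its differences with and without doxycycline were 1.15 and 1.10 ± 0.09. NUF2, of the same complex, reached a similar size (1.24, 1.23 and 0.80 ± 0.38) but spread widely within groups and was not called without doxycycline (adjusted p = 0.0929 in limma), where its probe ILMN_1802951 was (0.92 ± 0.11, adjusted p = 9.98e-06). CENPN, which binds the centromeric nucleosome, showed the smallest differences, 0.30, 0.10 and 0.20 ± 0.08, and was not called with doxycycline (adjusted p = 0.29 in limma). The 4 genes of the chromosomal passenger complex, in which Aurora B (AURKB) works with INCENP, survivin (BIRC5) and borealin (CDCA8), were called in every state. AURKB differed by 1.08, 1.01 and 0.94 ± 0.09 and CDCA8 by 1.28, 1.21 and 1.02 ± 0.14.

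Spindle assembly factors had a median difference of 0.83 with doxycycline plus E2, 0.60 with doxycycline and 0.34 without, with all 5, all 5 and 4 of 5 called. TPX2, which activates Aurora A on the spindle, differed by 1.00, 0.89 and 0.80 ± 0.09. HMMR, a spindle and centrosome protein, was not called without doxycycline (0.11 ± 0.19, adjusted p = 0.658 in limma). Of the midzone and cytokinesis genes, PRC1, which bundles midzone microtubules, had 14.47, 14.50 and 14.35 in ERβ cells with doxycycline plus E2 against 13.24, 13.15 and 13.24 in ERα cells. With doxycycline it had 14.41, 14.26 and 14.42 against 13.18, 13.11 and 13.09. Its difference was 1.23 ± 0.09 in both of these states and 1.05 ± 0.09 without doxycycline. ECT2, an exchange factor needed for cytokinesis, differed by 1.43, 1.31 and 1.29 ± 0.27.

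The proliferation antigen MKI67 (Ki-67), which coats mitotic chromosomes, had the largest difference of the members under the processing used here. It had 9.37, 9.54 and 9.35 in ERβ cells with doxycycline plus E2 against 6.91, 7.32 and 7.33 in ERα cells, 9.15, 9.16 and 9.53 against 6.87, 6.68 and 7.24 with doxycycline, and 9.24, 9.52 and 9.24 against 7.45, 7.77 and 7.51 without. The differences of 2.24, 2.35 and 1.75 ± 0.16 correspond to 4.71-fold, 5.09-fold and 3.37-fold (adjusted p = 2.86e-08, 1.2e-08 and 3.65e-07 in limma). The probe is dim in ERα cells, and the size depends on the background correction: without one the differences were 1.43, 1.42 and 1.17, below those of CDC25C (1.81), AURKA (1.44) and KIF2C (1.37) in these states. With the authors' processed values CDC25C (1.89 against 1.62) and KIF2C (1.39 against 1.31) also exceeded it with doxycycline plus E2 and without doxycycline. TOP2A (topoisomerase II alpha) had 14.79, 14.76 and 14.67 against 13.66, 13.70 and 13.49 with doxycycline plus E2, and differed by 1.13, 1.16 and 1.08 ± 0.11.

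Of the transcription factors, FOXM1 had 12.86, 12.89 and 12.88 in ERβ cells with doxycycline plus E2 against 11.60, 11.54 and 11.63 in ERα cells, 12.76, 12.57 and 12.95 against 11.59, 11.49 and 11.52 with doxycycline, and 12.22, 12.49 and 12.57 against 11.64, 11.52 and 11.76 without. Its differences were 1.28, 1.23 and 0.79 ± 0.10, all called. MYBL2 (B-Myb) had 7.2, 6.60 and 6.99 against 6.69, 7.01 and 6.63 with doxycycline plus E2 and 5.97, 6.45 and 7.08 against 6.65, 6.10 and 7.28 with doxycycline, where the arrays overlapped. Only without doxycycline was it called (7.61, 6.80 and 6.85 against 6.56, 6.27 and 5.62, 0.93 ± 0.34, adjusted p = 0.032 in limma), and that call was lost in 9 of 20 alternatives, among them leaving out array 2 or 3 of the ERα group or array 1 of the ERβ group (range 0.35 to 1.14).

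**Figure D3:**
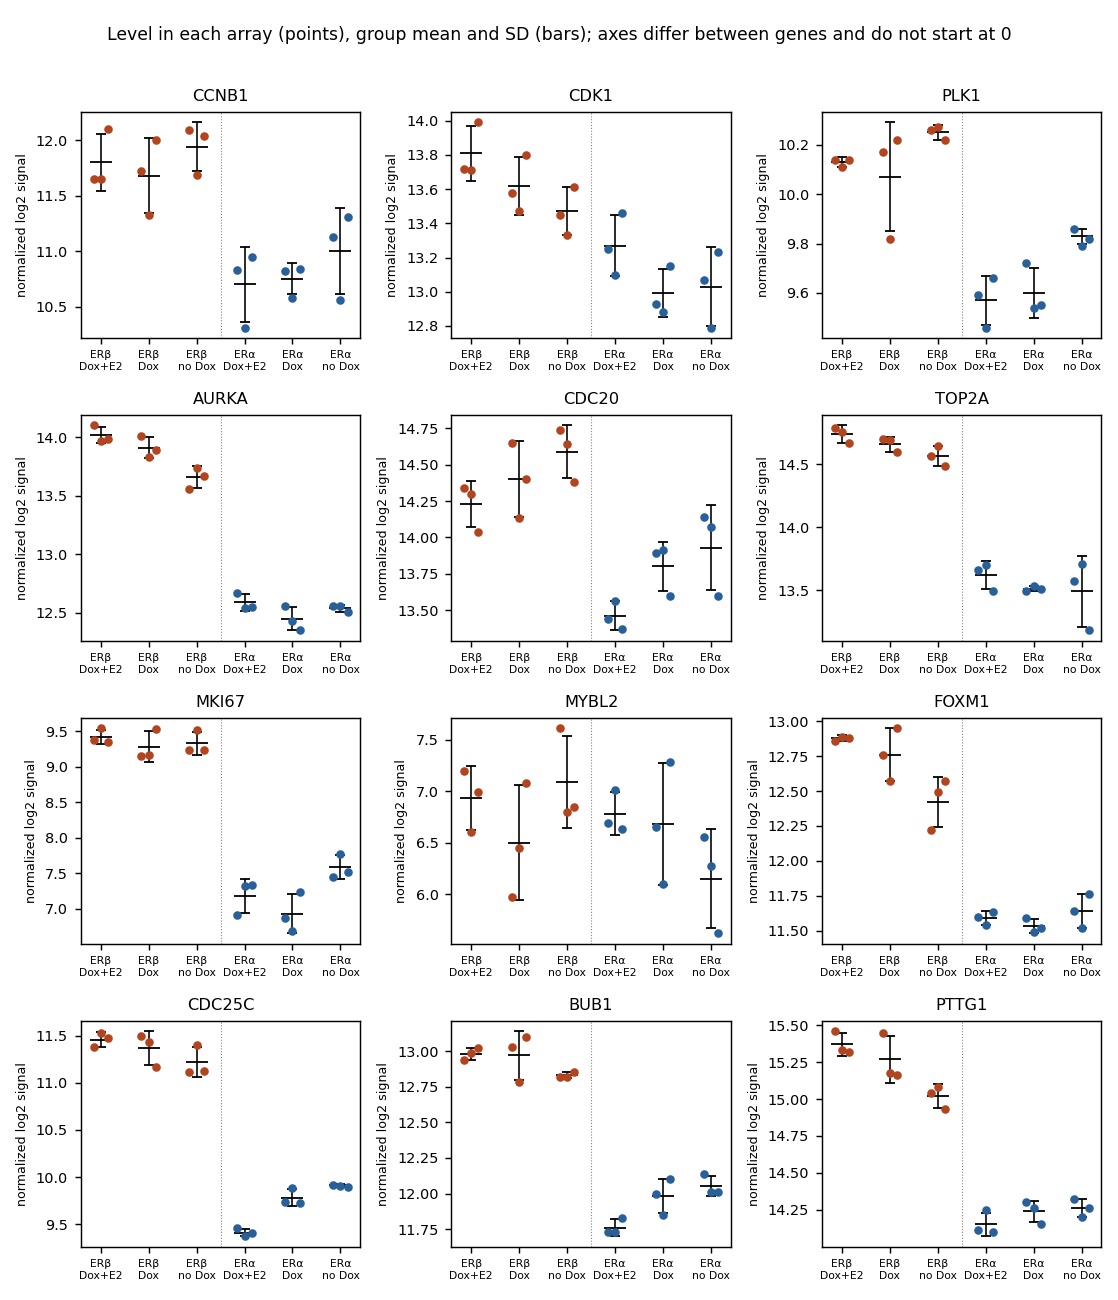
Normalized log2 signal of 12 genes on each array (points), with the mean and SD of each group (bars), ERβ groups left of the dotted line and ERα groups right of it. CDC25C lies at 11.12 to 11.53 on ERβ arrays and at 9.37 to 9.92 on ERα arrays, while MYBL2 overlaps between the lines.

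Other genes of mitosis and of S phase, listed separately, also differed between the lines, where 22.6%, 25.1% and 26.4% of all genes were called higher with doxycycline plus E2, with doxycycline and without. Of 77 other mitotic genes measured, 60 were called higher and 1 lower with doxycycline plus E2, 64 and 1 with doxycycline, and 65 and 1 without (77.9%, 83.1% and 84.4% higher), with medians of 0.87, 0.87 and 0.77. The gene that was lower was WEE1, the kinase that restrains CDK1, at -1.03, -0.62 and -0.42 ± 0.08. DNA replication and E2F genes, which are transcribed in G1 and S phase, were called higher in 26, 34 and 38 of 44 (59.1%, 77.3% and 86.4%), with 0 lower, and had medians of 0.34, 0.70 and 0.87. RRM2 (ribonucleotide reductase) had the largest difference of them, 1.80, 1.87 and 1.90 ± 0.11. CDKN1A (p21), an inhibitor of cyclin-dependent kinases, differed by 0.14, 0.03 and 0.08 and was not called (adjusted p = 0.392, 0.887 and 0.629 in limma). Of 17 upstream regulators measured, 5 were called higher and 4 lower with doxycycline plus E2, 8 and 2 with doxycycline, and 9 and 3 without. With doxycycline plus E2 these are 29.4% and 23.5%, near the 22.6% and 24.3% of all genes. With doxycycline and without, the shares called higher lay above the 25.1% and 26.4% of all genes. The shares called lower in these states lay below the 24.1% of all genes in each. The lists were not tested against each other.

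The effect of E2 was asked in each line by setting doxycycline plus E2 against doxycycline alone. In ERα cells 0 members were called higher and 2 lower, where 10.9% of all genes were called higher and 11.1% lower. The median change of the members was -0.02, against -0.03 over all genes, and 6 members had an unadjusted p below 0.05. CDC25C had 9.46, 9.37 and 9.41 with E2 against 9.73, 9.88 and 9.72 without it, and fell 1.29-fold (-0.36 ± 0.10, adjusted p = 0.0127 in limma). A second probe of CDC25C was called as well (ILMN_2407619, -0.29, adjusted p = 0.0304 in limma) and the third was not (-0.24, adjusted p = 0.247 in limma). MAD2L1, the checkpoint protein that blocks CDC20, had 12.99, 12.97 and 13.01 with E2 against 13.20, 13.22 and 13.27 (-0.24 ± 0.08, adjusted p = 0.0405 in limma). The MAD2L1 call was lost when any 1 of the 6 arrays compared was left out, and that of CDC25C when the second ERα array with doxycycline was (changes over all alternatives -0.30 to -0.22 and -0.41 to -0.29). Both were lost with a plain median shift in place of quantile normalization. That of MAD2L1 was also lost when the probes of a gene were averaged and when dim probes were not filtered out. CKS2 had 14.70, 14.81 and 14.77 against 14.25, 14.37 and 14.49 and was not called (0.39 ± 0.13, adjusted p = 0.0507 in limma). A second CKS2 probe, ILMN_1756326, was called higher (0.46 ± 0.08, adjusted p = 0.000723 in limma). The split of 0 higher and 2 lower became 3 higher and 4 lower with the authors' processed values.

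With E2 in ERα cells, 22 of 44 DNA replication and E2F genes (50%, against 10.9% of all genes) were called higher and 0 lower, led by E2F2 (0.92 ± 0.13), ORC1 (0.74 ± 0.11), CHAF1A (0.74 ± 0.13) and MCM2 (0.71 ± 0.10). The mean level of that list was 11.67 to 11.71 per array with E2 against 11.30 to 11.36 without it. Of 77 other mitotic genes 12 (15.6%, near the share of all genes) were called higher and 0 lower, led by MAD1L1, the kinetochore partner of MAD2 (1.70 ± 0.10, 3.25-fold, adjusted p = 4.94e-09 in limma), and ARHGEF39 (1.12 ± 0.19). MAD1L1 had 12.53, 12.57 and 12.44 with E2 against 10.79, 11 and 10.64.

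In ERβ cells E2 gave 0 members called in either direction in limma, where 6.98% of genes were called higher and 6.84% lower. The median change was 0.08 and 1 member had an unadjusted p below 0.05. The 3 members with the smallest p were KIF15 (-0.22 ± 0.10, adjusted p = 0.198 in limma), KIF4A (0.25 ± 0.12, adjusted p = 0.223) and CENPA (0.24 ± 0.12, adjusted p = 0.227). A second CENPA probe, ILMN_2392472, was called higher (0.42 ± 0.10, adjusted p = 0.00839 in limma). KIF15 had 10.91, 10.90 and 10.88 with E2 against 11.08, 11.07 and 11.21. Of the other mitotic genes 6 (7.79%) were called higher and 0 lower, led by ARHGEF39 (1.5 ± 0.19) and MAD1L1 (1.46 ± 0.10), and of the replication genes 3 (6.82%) were called higher and 0 lower, which were E2F2 (0.54), RRM2 (0.39) and POLE (0.33).

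The difference between the E2 responses, ERβ minus ERα, was called for 0 members in limma, where 3.37% of genes were called positive and 5.32% negative, and 1 member had an unadjusted p below 0.05. That was CDC25C, with 0.46 ± 0.14 (95% interval 0.16 to 0.75, adjusted p = 0.0526 in limma), and its probe ILMN_2407619 was called (0.52 ± 0.13, adjusted p = 0.0196). Of the replication genes 0 were called positive and 7 negative, led by MCM2 (-0.81 ± 0.13).

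Doxycycline alone was set against no doxycycline to ask for effects of inducing the receptor without added ligand. In ERα cells 0 members were called in limma, where 2 genes of 13505 were called in all (0.0148%). The signs were positive for 9 members and negative for 43, the median was -0.09, and 3 members had an unadjusted p below 0.05. MKI67 had 6.87, 6.68 and 7.24 with doxycycline against 7.45, 7.77 and 7.51 without, groups that did not overlap, and was not called (-0.65 ± 0.16, adjusted p = 0.417 in limma). PLK1 (-0.22 ± 0.10) and CENPF, a kinetochore protein (-0.30 ± 0.13), followed by p and were not called.

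In ERβ cells doxycycline raised 2 members and lowered 0, where 9.90% of genes were called higher and 10.7% lower. FOXM1 had 12.76, 12.57 and 12.95 with doxycycline against 12.22, 12.49 and 12.57 without, so that the groups did not overlap but lay close at their edges (0.33 ± 0.10, adjusted p = 0.0328 in limma). AURKA had 14.01, 13.83 and 13.89 against 13.56, 13.74 and 13.67 (0.25 ± 0.08, adjusted p = 0.0352 in limma). Both calls were lost when array 1 of the ERβ group without doxycycline, the first array with doxycycline or the third was left out, that of FOXM1 also without the second and that of AURKA without the third array of the group without doxycycline, and, for both, with a plain median shift and in fits of the arrays compared alone (changes 0.23 to 0.46 and 0.15 to 0.33). After the median shift 0 members were called higher and 2 lower, CENPF (-0.38) and BIRC5 (-0.30), and other settings gave calls in both directions. The second probes of FOXM1 (0.23) and AURKA (0.20) were not called, while a PTTG1 probe was called higher (ILMN_1753196, 0.28) and a UBE2C probe lower (ILMN_2265654, -0.46 ± 0.10, adjusted p = 0.00638 in limma). Of the replication genes, 0 were called higher and 14 lower, led by CDC6 (-0.59 ± 0.13) and CCNE1 (-0.54 ± 0.12). Of the other mitotic genes 3 were called higher, with ARHGEF39 first (1.24 ± 0.19), and 6 lower, with SKA3, of the outer kinetochore, first (-0.57 ± 0.09).

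The difference between the doxycycline responses was called for 0 members in limma, against 5.34% of genes positive and 4.32% negative, with 8 members at an unadjusted p below 0.05. The smallest p belonged to AURKA (0.35 ± 0.11, adjusted p = 0.0658 in limma), FOXM1 (0.44 ± 0.15, adjusted p = 0.0763) and ASPM, a spindle pole protein (0.45 ± 0.17, adjusted p = 0.117).

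**Figure D4:**
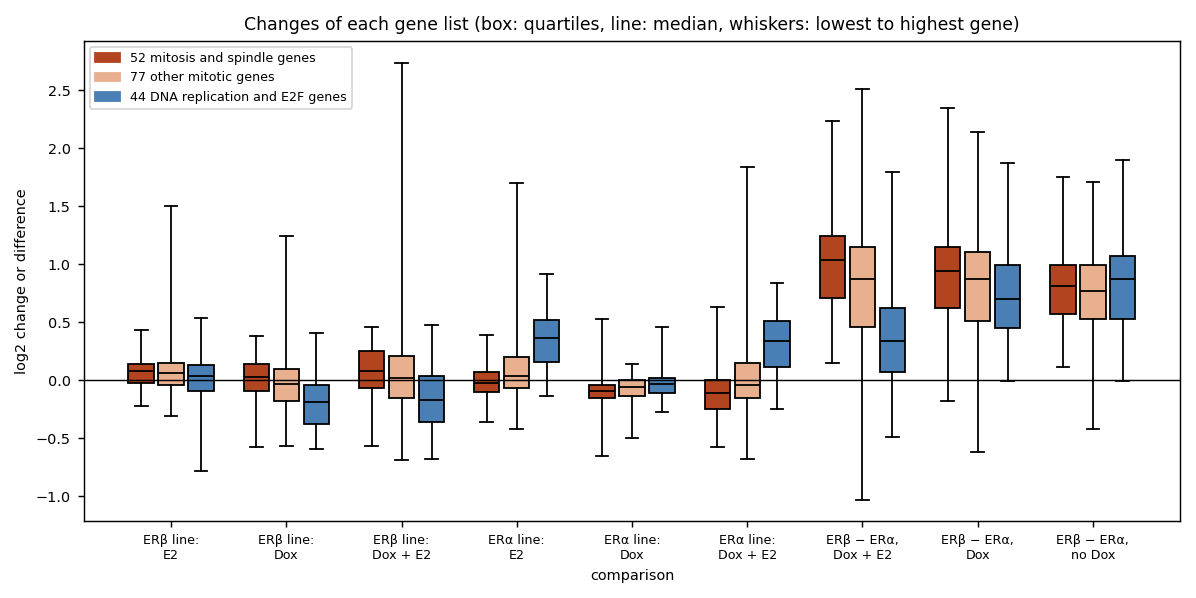
Log2 change or difference of the 52 genes, 77 other mitotic genes and 44 DNA replication and E2F genes in 9 comparisons (boxes, quartiles with the median, whiskers from lowest to highest gene). The 52 genes have medians of -0.02 for E2 in ERα cells, where the replication genes have 0.36, and of 0.81 to 1.04 between the lines.

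Doxycycline plus E2 was also set against no doxycycline in each line, a comparison that has arrays in common with those above. In ERα cells 0 members were called higher and 6 lower, where 12.8% of genes were called higher and 12.6% lower (12.1 percentage points more of the calls were higher after a plain median shift, 62.4% instead of 50.3%, with 4 members lower). CDC25C had 9.46, 9.37 and 9.41 with doxycycline plus E2 against 9.92, 9.90 and 9.89 (-0.49 ± 0.10, 1.41-fold lower, adjusted p = 0.00137 in limma). CENPF had 10.74, 11.01 and 10.85 against 11.59, 11.65 and 11.13 (-0.58 ± 0.13, adjusted p = 0.00466). AURKB had 11.64, 11.61 and 11.50 against 11.95, 11.89 and 11.90 (-0.33 ± 0.09, adjusted p = 0.0132). The 3 genes kept their direction in all 21 alternatives, and CDC25C was called in each. The CKS2 probe ILMN_1756326 was called higher (0.29 ± 0.08, adjusted p = 0.0172 in limma), and its chosen probe was not (0.30).

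BUB1 (11.73, 11.73 and 11.83 against 12.14, 12.01 and 12.01, -0.29 ± 0.09), CDC20 (13.44, 13.56 and 13.37 against 14.14, 14.07 and 13.60, -0.48 ± 0.16) and DLGAP5, a spindle assembly factor (12.76, 12.60 and 12.60 against 13.05, 12.91 and 12.88, -0.30 ± 0.10), lay nearer to the threshold (adjusted p = 0.0263, 0.0414 and 0.0498 in limma). Leaving out array 1 of the group without doxycycline, or the first or second with doxycycline plus E2, ended each of these calls. Those of CDC20 and DLGAP5 were also lost without array 2 of the group without doxycycline or the third with doxycycline plus E2, that of DLGAP5 without array 3 of the group without doxycycline, and that of AURKB without the third array with doxycycline plus E2. Of the replication genes 23 were called higher and 0 lower, and of the other mitotic genes 10 higher and 2 lower, SPC24 (-0.68 ± 0.17) and PSRC1 (-0.63 ± 0.14). In this comparison 12.8% of all genes were called higher and 12.6% lower. The share of other mitotic genes called higher lay near that of all genes, and the share called lower lay below it.

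In ERβ cells 6 members were called higher and 3 lower with doxycycline plus E2, where 2164 of all genes were called higher and 2942 lower (37.8% of 13505 in either direction). The higher ones were AURKA (14.10, 13.97 and 13.98 against 13.56, 13.74 and 13.67, 0.36 ± 0.08), FOXM1 (12.86, 12.89 and 12.88 against 12.22, 12.49 and 12.57, 0.45 ± 0.10), PTTG1 (15.46, 15.33 and 15.32 against 15.04, 15.08 and 14.93, 0.35 ± 0.09), KIF4A (11.83, 11.93 and 11.68 against 11.22, 11.60 and 11.32, 0.43 ± 0.12), TPX2 (13.23, 13.11 and 13.15 against 12.79, 12.92 and 12.88, 0.30 ± 0.09) and KIF14 (12.31, 12.02 and 12.01 against 11.60, 11.89 and 11.79, 0.35 ± 0.13). KIF4A and KIF14 are kinesins of the midzone. The arrays of the groups did not overlap for 19 of 52 members that lay higher, among them these 6. They did not overlap for 7 that lay lower, against 20.7% of all genes higher and 28.4% lower. The adjusted p of the 6 called higher ran from 0.00215 for AURKA to 0.0425 for KIF14 in limma. The call of KIF14 was lost without array 1 or 3 of the group without doxycycline or the first with doxycycline plus E2. That of TPX2 was lost without array 1 of the group without doxycycline or the first with doxycycline plus E2.

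The members that fell were MAD2L1 (13.51, 13.44 and 13.41 against 13.69, 13.83 and 13.84, -0.33 ± 0.08), CENPF (11.78, 11.59 and 11.46 against 12.14, 12.31 and 12.08, -0.57 ± 0.13) and KIF15 (10.91, 10.90 and 10.88 against 11.12, 11.25 and 11.39, -0.36 ± 0.10), with adjusted p of 0.00304, 0.00334 and 0.0123 in limma. The call of KIF15 was lost without array 3 of the group without doxycycline. That of MAD2L1 was lost when the probes of a gene were averaged. Further probes were called for 5 members whose chosen probe was not, higher for CDC25C (0.48), CENPA (0.63), HMMR (0.49) and NUF2 (0.35) and lower for UBE2C (-0.42, against 0.08 for its chosen probe). Other mitotic genes were called higher in 14 and lower in 11 of 77, with ARHGEF39 at 2.74 ± 0.19 and SKA3 at -0.69 ± 0.09, and replication genes higher in 2 and lower in 13 of 44. The 14 of 77 lie near the 16% of all genes called higher, where 2942 of 13505 were called lower.

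The difference between the responses to doxycycline plus E2, ERβ minus ERα, was called positive for 4 members and negative for 0, where 8.04% of genes were called positive and 10.3% negative. The sign was positive for 44 of 52 members, and the median was 0.19, against -0.03 over all genes. CDC25C changed by 0.24 in ERβ cells and -0.49 in ERα cells, a difference of 0.74 ± 0.14 (adjusted p = 0.00135 in limma). The corresponding differences were 0.46 ± 0.12 for PTTG1 (adjusted p = 0.0171), 0.44 ± 0.13 for BUB1 (adjusted p = 0.022) and 0.50 ± 0.15 for FOXM1 (adjusted p = 0.027). The CDC25C probe ILMN_2407619 gave the same 0.74 (adjusted p = 0.000883 in limma), and the third probe 0.54 (adjusted p = 0.0578). Further probes of AURKA (0.45), CENPA (0.53) and HMMR (0.64) were called positive where the chosen probe was not. Without array 1 of the ERα group without doxycycline, or the first or second ERα array with doxycycline plus E2, BUB1 was not called. FOXM1 was not called when the third ERα array without doxycycline, the first or second ERα array with doxycycline plus E2, the first ERβ array without doxycycline, the second ERβ array with doxycycline plus E2 or the third was left out. Replication genes gave the opposite sign, with 0 called positive and 24 of 44 negative, a median of -0.47, and CDC6 (-1.28 ± 0.19) and CDT1 (-1.12 ± 0.23), the loaders of the replicative helicase, first. Other mitotic genes were called positive in 4 and negative in 8 of 77.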

How the data were processed

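Total RNA was labelled with biotin from 750 ng per sample and hybridized to single-colour Illumina arrays, per the labels' protocols. The authors deposited a table of 1 probe intensity per array, not normalized between arrays, with a detection p-value beside each, per the file headers. A further table deposited by the authors holds processed intensity values (lumi is named in the submitters' processing notes). Its steps, scale and centring are not given in the sources used here (linear values, column medians 170.4 to 173.4), and it served only as an alternative.

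Of 48804 probe lines, 1 repeat was dropped. In the probe annotation 27578 probes had 1 gene symbol, 13 several and 21212 none, and only those with 1 symbol are named. Background was removed by the normexp method of limma's nec, guided by detection p-values (offset 16). Intensities were then quantile-normalized and put on the log2 scale in limma 3.58.1 (R 4.3.3). A probe was kept if its detection p was below 0.01 on 3 or more arrays of 18, and the brightest stood for a gene, which left 13505 genes. The 6 group means were fitted to all 18 arrays with lmFit and eBayes (12 residual and 2.66 prior degrees of freedom). P-values were 2-sided and adjusted by the Benjamini-Hochberg method over all genes in each comparison, with a threshold of 0.05. Of the 12 comparisons, 2 were added after the data had been seen. For further probes of a gene, the fit and the adjustment ran over all 18404 kept probes with 1 symbol. The fit was tested on simulated data. Of the members, 20 had 24 further kept probes, and 0 of these were called opposite to a chosen probe that was itself called. Between the lines, 18, 19 and 18 of the 24 were called higher with doxycycline plus E2, with doxycycline and without. Of the rest, 6, 5 and 4 were not called although the chosen probe of their gene was. UBE2C (ILMN_2265654) was called opposite in sign to a chosen probe that was not, in 1 comparison.

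The members and the gene lists were chosen with earlier results of these data known. The rule for values by array took CCNB1, CDK1, PLK1, AURKA, CDC20, TOP2A, MKI67, FOXM1 and MYBL2 and, per comparison, up to 6 called members in each direction by adjusted p. Where 0 were called, it took the 3 with the smallest p. Of the other mitotic and the replication genes it named up to 4 with the largest called change. Other members were named after their values were seen. Promoter letters are those of RefSeq (GRCh38.p14). Columns 4 to 9 of each line carry no replicate number, and for fits with a replicate block each was numbered like the closest processed column, by rank correlation, in its own group.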

Additional observations from a re-analysis of the deposited data

Results flagged for a closer look

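For 4 members the response to doxycycline plus E2 differed between the lines by a test of the difference itself, ERβ minus ERα, in limma. They are 7.69% of the 52, near the 8.04% of all genes called positive. The differences were 0.74 for CDC25C, 0.44 for BUB1, 0.46 for PTTG1 and 0.5 for FOXM1, with adjusted p of 0.00135, 0.022, 0.0171 and 0.027. CDC25C and BUB1 were called lower in ERα cells (-0.49 and -0.29), and PTTG1 and FOXM1 were called higher in ERβ cells (0.35 and 0.45). CDC25C passed in 26 of 27 alternatives, PTTG1 in 23, BUB1 in 20 and FOXM1 in 17.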

How the results depend on the processing

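Between the lines, 47 to 51 members were called higher with doxycycline plus E2 under other processing, 47 to 50 with doxycycline and 42 to 51 without, and none was called lower in any setting. Leaving out arrays gave 45 to 50, 41 to 49 and 39 to 47, and median differences ran over all settings from 0.98 to 1.07, 0.87 to 1.04 and 0.75 to 0.9. The fewest came from leaving out a whole set of 6 same-numbered arrays, and without set 1 CCNB1 (with and without doxycycline), CDC20 (with doxycycline) and CDK1 (each state) were not called.

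Counts within lines moved more, and the cause was not tested. The share of all genes called in either direction also moved. With the authors' values it went from 22% to 34.8% and from 13.8% to 23.6% for E2 in ERα and ERβ cells. It went from 20.6% to 34.5% for doxycycline in ERβ cells. For doxycycline plus E2 it went from 25.4% to 39.1% and from 37.8% to 51.1% in ERα and ERβ cells. For the differences of E2, doxycycline and doxycycline plus E2 responses it went from 8.69%, 9.66% and 18.4% to 18.6%, 20.4% and 31.8%. For E2 in ERα cells, 2 members called became 0 with a median shift, 7 with the authors' values, 6 with array weights and 1 without a filter on dim probes, and 0 to 2 when arrays were left out. For E2 in ERβ cells, 0 became 3 with the authors' values, 3 with weights and 1 with averaged probes, and stayed at 0 when arrays were left out. For doxycycline in ERα cells the count was 0 in every setting. For doxycycline in ERβ cells, 2 became 5 without background correction, 5 with cyclic loess, 10 with the authors' values, 8 with weights, 0 without a filter and 0 with only the arrays compared, and 0 to 2 with arrays left out. For doxycycline plus E2 in ERα cells, 6 became 17 with the authors' values, 13 with weights and 2 with only the arrays compared, and 1 to 9 with arrays left out. In ERβ cells, 9 became 14 with loess, 23 with the authors' values and 15 with weights, and 3 to 10 with arrays left out. For the difference of E2 responses, 0 became 1 with loess, the authors' values, the mean of probes or probes detected on all 18 arrays, and 0 to 1 with arrays left out. For that of doxycycline responses, 0 became 1 without background correction, with loess or with the mean of probes, 6 with the authors' values and 5 with weights, and 0 to 2 with arrays left out. For that of doxycycline plus E2, 4 became 7 without background correction, 1 with a median shift, 8 with loess, 16 with the authors' values, 9 with weights and 7 with the mean of probes, and 0 to 7 with arrays left out. The members called and named kept their sign in every setting run, but the counts did not all keep their direction. For doxycycline in ERβ cells, 2 higher and 0 lower became 0 higher and 2 lower after a median shift (CENPF, -0.38, and BIRC5, -0.30). The calls there were 3 higher and 2 lower without background correction and with loess, 6 and 4 with the authors' values and 5 and 3 with weights. For E2 in ERα cells, 0 higher and 2 lower became 3 and 4 with the authors' values, 2 and 4 with weights or the replicate block, and 1 and 2 without background correction.

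Same-numbered arrays deviated together (median correlation 0.378, against -0.197 for other pairs), with 44 of 45 pairs over 0.1 and 16 of 18 arrays closest to their own number, which is a hint from the data and not the design. In the authors' values the median was -0.185. With the replicate block, members called numbered 6 and 1 for E2 in ERα and ERβ cells, 0 and 7 for doxycycline, 13 and 17 for doxycycline plus E2, 1, 3 and 10 for the differences of E2, doxycycline and doxycycline plus E2 responses, and 50, 50 and 51 between lines with doxycycline plus E2, with doxycycline and without. Of all genes the block called 28.4% and 18.7% for E2, 0.0148% and 28% for doxycycline, and 33.2% and 45.5% for doxycycline plus E2. For the differences the share was 12.5%, 14.6% and 24.9%, and between lines 54.6%, 56.3% and 58%, in the same orders. With the block on the authors' values, the counts that moved were 6 for E2 in ERα cells, 7 for doxycycline in ERβ cells, 16 and 18 for doxycycline plus E2 in ERα and ERβ cells, and 1, 2 and 11 for the differences. Of all genes, 29.9%, 29.3%, 34.5%, 46.7%, 13.9%, 15.6% and 26.6% were called there, in the same order. With the block NEK2 was called with (0.78 ± 0.13) and without doxycycline (0.66 ± 0.13), and NUF2 (0.80 ± 0.13) and ANLN (0.36 ± 0.13) without. Within sets, 50, 51 and 50 members were higher in ERβ in 3 of 3 sets in these states. Genes near the detection limit, such as MYBL2, show only changes above it.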

Other observations

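Some mitotic genes outside the 52 responded to the receptor state more than any of the 52 did within the ERβ line. ARHGEF39 had 12.63, 12.76 and 12.58 in ERβ cells with doxycycline plus E2 against 9.80, 10.27 and 9.67 without doxycycline, a 6.69-fold rise (2.74 ± 0.19, adjusted p = 1.63e-08 in limma), higher in 3 of 3 arrays. In ERα cells the same step took it to 10.02, 10.30 and 10.12, against 9.40, 9.51 and 9.01 without doxycycline (0.84 ± 0.19). The difference between these responses was 1.91 ± 0.26 (adjusted p = 0.000121 in limma).

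PIMREG, a mitotic regulator, had 13.01, 13.05 and 12.93 in ERβ cells with doxycycline plus E2 against 12.14, 11.96 and 12.23 with doxycycline (0.88 ± 0.09, adjusted p = 7.46e-06 in limma). In ERα cells its arrays with doxycycline plus E2 (11.47, 11.44 and 11.44) stood beside 11.39, 11.25 and 11.11 with doxycycline. SAPCD2, a spindle orientation protein, was called higher with E2 in ERα cells (0.86 ± 0.18, adjusted p = 0.00221 in limma), with 11.74, 11.92 and 11.59 against 10.77, 11.04 and 10.85. In ERβ cells it was called lower with doxycycline plus E2 (-0.48 ± 0.18, adjusted p = 0.0429 in limma), with 11.71, 11.73 and 11.26 against 11.81, 12.30 and 12.04 without doxycycline.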
